A study of Homo sapiens with 24 samples.

Results

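The genes described here are those of the mitochondrial genome, taken as every row of the gene count table whose symbol begins with MT-. There were 37 of them among 58825 genes: 12 messenger RNA (mRNA) genes, 2 ribosomal RNA (rRNA) genes and 14 transfer RNA (tRNA) genes on the plus strand of the annotation, and 1 mRNA gene, MT-ND6, with 8 tRNA genes on the minus strand. The plus strand genes are called heavy strand genes and the minus strand genes light strand genes below. Polyadenylated RNA had been sequenced from 24 libraries of SK-HEP-1 (labelled SKHEP1), a human cell line established from a tumour of the liver. All lines carried the CRISPR interference system, in which an inactive Cas9 is aimed at a promoter by a guide RNA. The control lines NTC1 and NTC2 carried non-targeting guides, and the lines sgRNA-2, sgRNA-4, sgRNA-5 and sgRNA-6 each carried a guide against PURPL, a p53-induced long noncoding RNA. Each of the 6 lines was treated for 6 h with 10 µM Nutlin-3a, which blocks the binding of MDM2 to p53, or with its vehicle DMSO, and was harvested in 2 biological replicates numbered 1 and 3. The labels do not say whether a line was 1 clone.

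Mitochondrial DNA is copied and transcribed inside the organelle by proteins that are encoded in the nucleus. Transcription of each strand gives long RNAs that are cut at the tRNAs lying between the other genes, after which the mRNAs and rRNAs of the heavy strand receive short poly(A) tails. The mRNAs encode subunits of respiratory complexes I, III and IV and of ATP synthase, and the rRNAs form the mitochondrial ribosome. The RNA of MT-ND6 is known for carrying little or no poly(A) tail, as are tRNAs.

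Depth ranged from 66.4 M to 92.1 M estimated counts per library, with a median of 74.2 M. The library labelled sgRNA-2, Nutlin-3a, harvest 1 stood apart. Its median correlation across genes with libraries of its treatment was 0.907, against 0.987 to 0.995 in the others, and its log2 levels rose by 1.55 for each 10 points of GC content, against slopes of -0.21 to 0.35. It is called the divergent library, and where a call of a mitochondrial gene's response to Nutlin-3a changed without it, both values are given. Among the others, harvest 3 of NTC1 with DMSO and harvest 3 of sgRNA-5 with Nutlin-3a had the lowest correlations (0.987 and 0.988). Their GC slopes were also the highest of the others (0.31 and 0.35). The endothelial markers PECAM1, CDH5, KDR and VWF reached at most 0.0277, 0.0591, 0.0125 and 0.274 CPM (a level relative to the library's total count, TMM normalised), while the label gives endothelial cells. These 4 are part of a list of 16 endothelial genes, of which 7 passed the expression filter, with ENG (endoglin) the highest of these at 25.3 CPM in the guide lines with DMSO. The p53 targets CDKN1A and MDM2 rose with Nutlin-3a by 3.59 and 3.22 on the log2 scale in the NTC lines (edgeR adjusted p = 9.73e-08 and 2.67e-07). PURPL was lower in the guide lines by a log2 difference of -3.92 with DMSO (edgeR adjusted p = 0.0127) and of -4.16 with Nutlin-3a, where it missed the threshold (edgeR adjusted p = 0.432) but passed without the divergent library (log2 difference -4.06, edgeR adjusted p = 4.88e-05). The DMSO call was lost without NTC1, sgRNA-4 or sgRNA-6 (edgeR adjusted p = 0.167, 0.119 and 0.163) and within harvest 3 alone (edgeR adjusted p = 0.0557), at log2 differences of -4.06 to -3.89.

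The mitochondrial genes lie so close together that some neighbours share bases. In GENCODE release 29 on hg38, from whose transcripts the sequences were read, MT-ATP8 and MT-ATP6, which encode 2 subunits of ATP synthase, share 46 bases (chrM:8527-8572, plus strand). MT-ND4L and MT-ND4, which encode 2 subunits of complex I, share 7 bases (chrM:10760-10766, plus strand). Both overlaps are shown as features of the annotation. Counts that were not whole occurred in 2 libraries for MT-ATP8 and in 0 for MT-ND4L. Capitals mark the shared bases, from the start codon of the downstream gene to the stop codon of the upstream gene.
MT-ATP8 and MT-ATP6: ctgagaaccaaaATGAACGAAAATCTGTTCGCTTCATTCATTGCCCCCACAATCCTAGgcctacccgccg
MT-ND4L and MT-ND4: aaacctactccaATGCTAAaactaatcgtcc

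The ends of the mRNA genes show where the RNAs depend on their poly(A) tails. Of the 13 annotated mRNA sequences, 6 (MT-ND1, MT-ND2, MT-CO3, MT-ND3, MT-ND4 and MT-CYB) end in an incomplete stop codon, T or TA, which is known to be completed to TAA by the added tail, and 7 end in a complete codon. The last bases of 4 genes whose results are described in detail are given, with the bases of the stop codon in capitals. The codons AGA and AGG, which end MT-CO1 and MT-ND6, are annotated as their stop codons.
MT-ND4: accgggttttcctctT
MT-ND5: ctactcctaatcacaTAA
MT-CO1: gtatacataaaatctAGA
MT-ND6: attgctcgggggaatAGG

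Of the 37 genes, 15 passed the expression filter, namely the 13 mRNA and the 2 rRNA genes, and they were the same 15 in every comparison. Heavy strand mRNA genes held 88.4% of all mitochondrial counts, rRNA genes 11.5% and MT-ND6 0.114%. The 14 heavy strand tRNA genes had 5 counts in total over the 24 libraries, on 3 genes, and the 8 light strand tRNA genes 3 counts on 2 genes. The other 17 tRNA genes had no count in any library. Transfer RNAs are 59 to 75 bases long in the annotation, and nothing can be said of their response from these libraries.

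Per kilobase of gene length, the genes of cytochrome c oxidase (complex IV) stood highest in these libraries of polyadenylated RNA. How far the selection of polyadenylated RNA set the order of the genes was not tested. With DMSO, MT-CO3 had 1505 ± 176 CPM per kb, MT-CO1 1406 ± 131 and MT-CO2 1364 ± 145 (SD, n = 12 libraries). These 3 levels overlapped, and MT-CO3 was above MT-CO1 in 10 of 12 libraries. MT-ATP6 followed at 1028 ± 131 CPM per kb, then the complex I gene MT-ND3 at 899 ± 208, MT-ATP8 at 862 ± 158 and MT-ND2 at 776 ± 106. Neighbours in this order overlapped as well, MT-ATP6 lying above MT-ND3 in only 7 of 12 libraries.

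The large rRNA, MT-RNR2, came next at 618 ± 85.0 CPM per kb, and MT-ND4 followed at 512 ± 48.1. MT-ND4L at 397 ± 74.8 and the complex III gene MT-CYB at 387 ± 39.3 CPM per kb could not be placed in order, since MT-ND4L was above MT-CYB in 7 of 12 libraries. MT-ND1 (258 ± 36.6) and MT-ND5 (236.5 ± 36.6) were as close, with MT-ND1 above in 7 of 12. The small rRNA, MT-RNR1, had 196 ± 17.9 CPM per kb. MT-ND6 was lowest, at 22.6 ± 7.91, and was the only gene whose 12 values did not overlap those of its neighbour in the order.

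**Figure D1:**
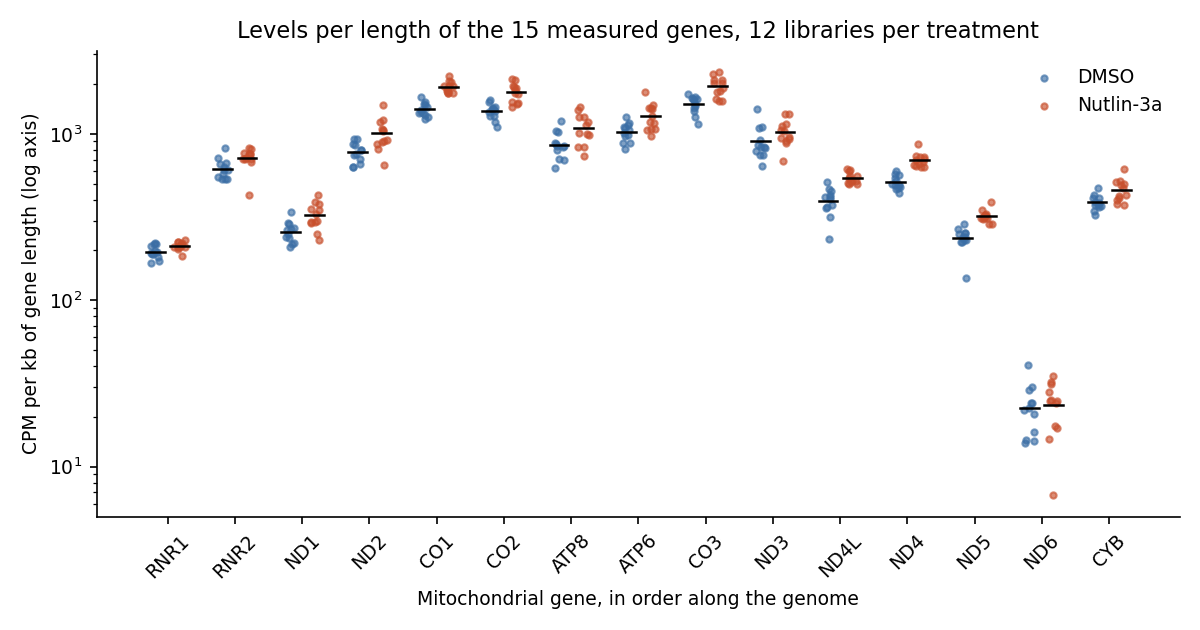
Levels of the 15 measured mitochondrial genes in CPM per kilobase (log axis), in genome order; points are the 12 DMSO (blue) and 12 Nutlin-3a (red) libraries and bars their means. MT-ND6, with means of 22.6 and 23.4, lies below all other genes, and MT-CO3, MT-CO1 and MT-CO2 are highest with either treatment.

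The first comparison asked whether activating p53 with Nutlin-3a changed the mitochondrial RNA of these cells. The share of all counts that fell on mitochondrial genes was higher with Nutlin-3a in every line. With DMSO it ran from 0.81% to 1.08% of a library (median 0.92%, 12 libraries), and with Nutlin-3a from 1.10% to 1.47% (median 1.195%). The groups did not overlap: all 12 Nutlin-3a libraries lay above all 12 DMSO libraries. The nearest were harvest 3 of sgRNA-5 with DMSO, at 1.08%, and harvest 1 of NTC2 with Nutlin-3a, at 1.10%.

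Over lines, the share rose 1.31-fold (log2 change 0.39, SD 0.12, n = 6 lines, higher in 6 of 6; exact two-sided sign-flip permutation test, p = 0.0312, the smallest that 6 lines allow). The line values ran from 1.18-fold in sgRNA-5 to 1.48-fold in NTC1. Within harvest 1 alone the log2 change was 0.32, and within harvest 3 alone 0.46, each higher in every line (exact permutation p = 0.0312). Without the divergent library it was 0.41. In bulk RNA, a change in RNA per cell and a change in the mixture of cells cannot be told apart, and neither can more mitochondrial RNA and less of all other RNA.

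**Figure D2:**
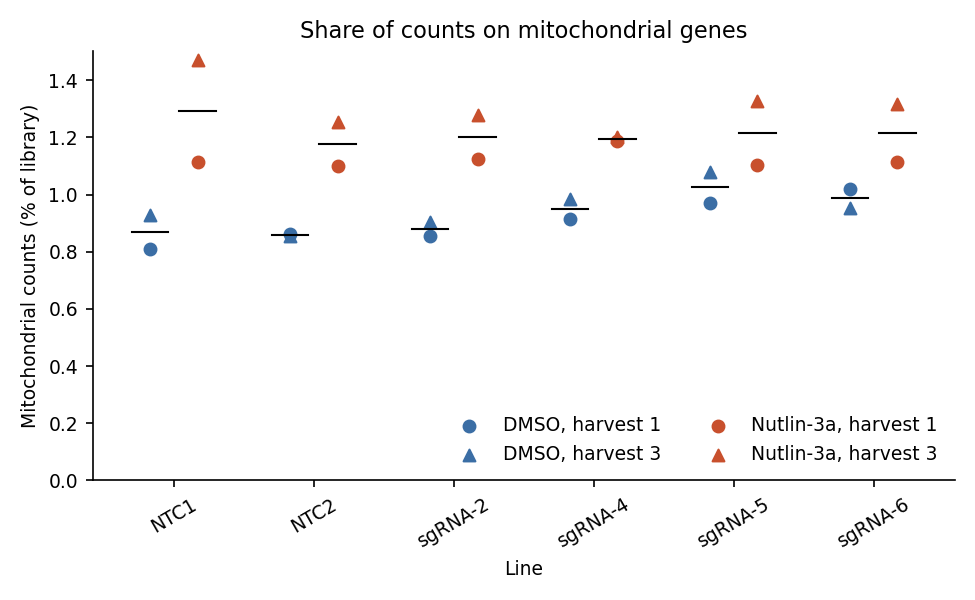
Mitochondrial counts as a percentage of each library, by line; circles are harvest 1, triangles harvest 3, blue DMSO, red Nutlin-3a, and bars the mean of the 2 harvests. Every Nutlin-3a value (1.10% to 1.47%) lies above every DMSO value (0.81% to 1.08%).

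Gene by gene, those that rose with all libraries in the fit were heavy strand mRNAs, and the rRNAs passed the test only under some alternatives, given with them below. In the NTC lines, 5 of the 15 measured genes rose (MT-CO1, MT-CO2, MT-ND4, MT-ND4L and MT-ND5), against 4.18% of all 16371 genes tested, and 0 fell, against 4.03%. In the guide lines 6 rose, the same 5 and MT-CO3, against 17.7% of all genes, and 0 fell, against 16.5%. All 15 log2 fold changes were above 0 in both comparisons, against 7560 and 8905 of all 16371 genes. The median of the 15 was 0.49 in the NTC lines and 0.25 in the guide lines, beside -0.02 and 0.05 over all genes tested. The NTC median was 0.316 without harvest 3 of NTC1 with Nutlin-3a and 0.326 without harvest 1 of NTC1 with DMSO. The guide line median was 0.125 without harvest 3 of sgRNA-5 with Nutlin-3a, 0.157 without harvest 1 of sgRNA-5 with DMSO and 0.423 with each library's trend on GC content removed. The calls are from edgeR's quasi-likelihood test at an adjusted p of 0.05, whose p-values here rest on how far the harvests of a line differed. Unadjusted p-values were under 0.05 for 13 of the 15 genes in the NTC lines, against 19.5% of all genes, and for 6 in the guide lines, a share below the 47% of all genes. DESeq2 called 9 and 6 higher, against 6.18% and 23.1%, and none lower, against 5.19% and 17.3%. Without the divergent library 10 genes rose in the NTC lines, against 8.88% of all genes, MT-ND2, MT-CO3, MT-CYB, MT-RNR1 and MT-RNR2 being added, and 7 in the guide lines, against 15.9%, with MT-RNR2 added. None fell there, against 15.9% and 22.7%.

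**Figure D3:**
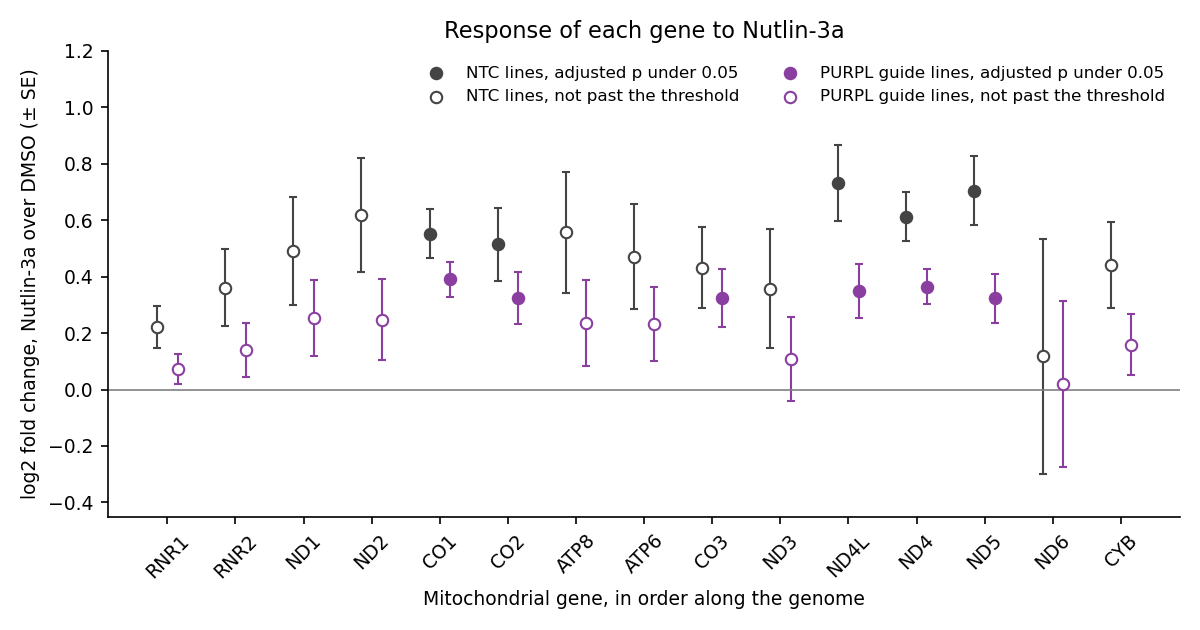
Log2 fold change with Nutlin-3a over DMSO for each gene, with its standard error, in the NTC lines (grey) and the PURPL guide lines (purple); filled points passed an edgeR adjusted p of 0.05. MT-CO1, MT-CO2, MT-ND4, MT-ND4L and MT-ND5 are filled in both, and MT-ND6 lies near 0 with the widest errors.

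Complex I, the NADH dehydrogenase through which electrons enter the chain, has 7 subunits encoded by mitochondrial genes, 6 of them on the heavy strand. MT-ND4 (ENSG00000198886.2, chrM:10760-12137), the gene with the incomplete stop codon printed above, had 639, 678, 611 and 652 CPM in the 4 NTC libraries with DMSO and 885, 906, 1197 and 961 CPM with Nutlin-3a (NTC1 and NTC2 of harvest 1, then of harvest 3). Over all lines it ran from 611 to 822 CPM with DMSO (median 684) and from 872 to 1197 with Nutlin-3a (median 948.5, n = 12 each). The 12 Nutlin-3a libraries were all above the 12 DMSO libraries, which held for 3.14% of all genes tested. It rose by 0.61 on the log2 scale in the NTC lines (SE 0.09, edgeR adjusted p = 0.000316) and by 0.36 in the guide lines (SE 0.06, edgeR adjusted p = 0.000442).

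MT-ND5 (ENSG00000198786.2, chrM:12337-14148), whose product is among the proton-pumping subunits at the far end of the membrane arm, was called in both sets of lines. Its NTC libraries had 406, 437, 248 and 404 CPM with DMSO and 566, 562, 709 and 582 with Nutlin-3a, in the same order. The low value, 248 CPM, was harvest 3 of NTC1 with DMSO, and the high value, 709 CPM, harvest 3 of the same line with Nutlin-3a. Over the 6 lines the ranges were 248 to 517 CPM and 517.1 to 709 CPM, so that they nearly met but did not overlap. The log2 change was 0.70 in the NTC lines (SE 0.12, edgeR adjusted p = 0.00178) and 0.32 in the guide lines (SE 0.09, edgeR adjusted p = 0.0117). In the guide lines the call was lost when harvests were summed per line (edgeR adjusted p = 0.0705).

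MT-ND4L (ENSG00000212907.2, chrM:10470-10766), whose last bases overlap MT-ND4, had 112, 125, 69.0 and 93.6 CPM with DMSO in the NTC libraries and 157, 166, 182 and 154 with Nutlin-3a. Over the 6 lines the ranges met, at 69.0 to 153 CPM and 149 to 182 CPM. It rose by 0.73 on the log2 scale in the NTC lines (SE 0.14, edgeR adjusted p = 0.00285) and by 0.35 in the guide lines (SE 0.10, edgeR adjusted p = 0.0133). MT-ND1, MT-ND2 and MT-ND3, which lie upstream of these genes, did not pass edgeR's test. Their log2 fold changes were 0.49, 0.62 and 0.36 in the NTC lines and 0.25, 0.25 and 0.11 in the guide lines (SE 0.14 to 0.21, edgeR adjusted p = 0.0785 or more). MT-ND2 passed in the NTC lines without the divergent library (log2 fold change 0.58, edgeR adjusted p = 0.0248). With harvests summed per line, MT-ND1 and MT-ND2 passed there (edgeR adjusted p = 0.0218 and 0.0274), and MT-ND1 also in the guide lines (edgeR adjusted p = 0.0252).

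Complex IV passes electrons to oxygen, and its 3 mitochondrial genes encode the catalytic core. MT-CO1 (ENSG00000198804.2, chrM:5904-7445), which holds the oxygen-reducing centre, had 1901, 2141, 1949 and 2063 CPM in the NTC libraries with DMSO and 2707, 2695, 3428 and 2975 with Nutlin-3a. Over the 6 lines it ran from 1901 to 2581 CPM with DMSO (median 2109) and from 2695 to 3428 with Nutlin-3a (median 2914), again without overlap. It rose by 0.55 on the log2 scale in the NTC lines (SE 0.09, edgeR adjusted p = 0.00071) and by 0.39 in the guide lines (SE 0.06, edgeR adjusted p = 0.000224).

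MT-CO2, the subunit that takes electrons from cytochrome c, rose by 0.51 in the NTC lines (SE 0.13, edgeR adjusted p = 0.0223) and by 0.32 in the guide lines (SE 0.09, edgeR adjusted p = 0.0155). Its ranges overlapped, 750 to 1093 CPM against 998 to 1464. The NTC call was lost when any 1 of 5 libraries was left out (harvest 1 of NTC1 or NTC2 or harvest 3 of NTC2 with DMSO, or harvest 3 of NTC1 or NTC2 with Nutlin-3a), with the log2 change between 0.34 and 0.51. It was also lost with harvests summed per line (edgeR adjusted p = 0.0508) and with no filter on low counts (edgeR adjusted p = 0.0581). The guide line call was lost on leaving out 8 of 16 libraries, 1 at a time, at log2 changes of 0.25 to 0.31. MT-CO3 stood at 0.43 on the log2 scale in the NTC lines (SE 0.14, edgeR adjusted p = 0.0865), where it passed without the divergent library (0.40, edgeR adjusted p = 0.0398), and rose by 0.32 in the guide lines (SE 0.10, edgeR adjusted p = 0.0259), where leaving out any 1 of 12 of the 16 libraries ended the call. MT-CO3 was nonetheless higher with Nutlin-3a in 12 of 12 pairs of libraries of the same line and harvest, as were MT-CO1, MT-ND4 and MT-ND5, a count that 6.99% of all genes reached.

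MT-CYB, the single mitochondrial subunit of complex III, and the ATP synthase genes MT-ATP6 and MT-ATP8 did not pass edgeR's test in either comparison. MT-CYB had 408 ± 32.4 CPM with DMSO and 554 ± 108 CPM with Nutlin-3a in the NTC lines (SD, n = 4), or 0.44 on the log2 scale (SE 0.15, edgeR adjusted p = 0.0987). It passed there without the divergent library (0.40, edgeR adjusted p = 0.0301), and with harvests summed per line MT-CYB and MT-ATP6 both did (edgeR adjusted p = 0.0376 and 0.0406). In the guide lines its log2 fold change was 0.16 (SE 0.11, edgeR adjusted p = 0.256). MT-ATP6 and MT-ATP8, the pair with the 46 shared bases, had log2 fold changes of 0.47 and 0.56 in the NTC lines (edgeR adjusted p = 0.159 and 0.147) and 0.23 in both cases in the guide lines (edgeR adjusted p = 0.176 and 0.233). With the GC trend removed MT-CYB, MT-ATP6 and MT-ATP8 passed in the guide lines (edgeR adjusted p = 0.0453, 0.0295 and 0.0156). Each of the 3 genes was higher with Nutlin-3a in 11 of 12 pairs of libraries. Of all genes 6.99% reached 12 of 12, and the share that reached 11 was not counted. The spread of the 3 genes was wide between harvests, MT-ATP6 for example having 553 and 773 CPM in NTC1 with DMSO.

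By line rather than by test, 13 of the 15 genes had a higher mean log2 CPM with Nutlin-3a in all 6 lines, against 14.7% of all genes tested. The exceptions were MT-RNR1, higher in 5 lines, and MT-ND6, higher in only 2. Both harvests with Nutlin-3a lay above both with DMSO in all 6 lines for MT-CO1, MT-ND4 and MT-ND5, against 4.75% of genes. Tested within single lines, MT-ND4 rose in NTC1 (log2 fold change 0.74, edgeR adjusted p = 0.00322), NTC2 (0.49, edgeR adjusted p = 0.0468) and sgRNA-2 (0.60, edgeR adjusted p = 0.00721), where 1.64%, 1.61% and 20.2% of all genes rose. In sgRNA-4, sgRNA-5 and sgRNA-6 its log2 fold changes were 0.33, 0.21 and 0.31 and did not pass, against 1.72%, 1.73% and 1.73% of genes that rose there. MT-CO1, MT-ND4L and MT-ND5 also rose in NTC1 (log2 fold changes 0.67, 0.91 and 0.96, edgeR adjusted p = 0.00556, 0.017 and 0.00538). In NTC2 they had 0.43, 0.55 and 0.44 and did not pass (edgeR adjusted p = 0.0816, 0.183 and 0.264). MT-CO2 had 0.54 and 0.49 in NTC1 and NTC2 and passed in neither. MT-ND4 was thus the only mitochondrial gene called in NTC2.

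The rRNA genes had smaller log2 fold changes than most of the mRNAs. MT-RNR2 (ENSG00000210082.2, chrM:1671-3229), the RNA of the large ribosomal subunit, ran from 836 to 1273 CPM with DMSO and from 670.5 to 1275 with Nutlin-3a. The lowest treated value belonged to the divergent library, and the next lowest was 1058 CPM. Its log2 fold change was 0.36 in the NTC lines (SE 0.14, edgeR adjusted p = 0.136) and 0.14 in the guide lines (SE 0.10, edgeR adjusted p = 0.263). MT-RNR1 (ENSG00000211459.2, chrM:648-1601), of the small subunit, had 0.22 (SE 0.07, edgeR adjusted p = 0.083) and 0.07 (SE 0.05, edgeR adjusted p = 0.283). MT-RNR2 rose without the divergent library in the NTC lines (0.33, edgeR adjusted p = 0.00907) and in the guide lines (0.21, edgeR adjusted p = 0.0161). MT-RNR1 then rose in the NTC lines (0.19, edgeR adjusted p = 0.0206) and had 0.08 in the guide lines (edgeR adjusted p = 0.132). DESeq2 called MT-RNR1 in the NTC lines as well (DESeq2 adjusted p = 0.00232), and a filter at 1 CPM did so in both (edgeR adjusted p = 0.0177 and 0.0305). With the GC trend removed MT-RNR2 passed in both (edgeR adjusted p = 0.00282 and 0.000215) and MT-RNR1 in the guide lines (edgeR adjusted p = 0.0101).

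Taken within each library, where the library's scaling drops out, there were 0.140 ± 0.0131 rRNA counts per heavy strand mRNA count with DMSO and 0.125 ± 0.0217 with Nutlin-3a (SD, n = 12). These are counts of polyadenylated RNA, and the ratio need not be that of all rRNA to mRNA in the cells. The libraries overlapped, from 0.123 to 0.161 and from 0.0813 to 0.156, and they overlapped within each harvest too, but the mean of each line was lower with Nutlin-3a. The ratio changed by -0.19 on the log2 scale, to 0.879 of its level (SD 0.14, n = 6 lines, lower in 6 of 6; exact sign-flip permutation p = 0.0312, Benjamini-Hochberg adjusted over 2 ratios 0.0312). By line it ran from -0.45 in sgRNA-2 to -0.05 in sgRNA-4. Without the divergent library it was -0.14 (exact permutation p = 0.0312). It was -0.20 within harvest 1 (exact permutation p = 0.0312) and -0.17 within harvest 3 (exact permutation p = 0.0625).

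MT-ND6 (ENSG00000198695.2, chrM:14149-14673, minus strand) was the only measured light strand gene, and it encodes another membrane subunit of complex I. It had 11.8, 10.8, 21.4 and 12.6 CPM in the NTC libraries with DMSO and 12.9, 12.95, 18.3 and 16.4 with Nutlin-3a, in the order used above. Over all lines it ran from 7.28 to 21.4 CPM with DMSO (median 11.6) and from 3.53 to 18.3 CPM with Nutlin-3a (median 12.9), and the groups overlapped almost completely. Its counts per library were 309 to 1980, so counting error was small beside the spread between harvests. The log2 fold change was 0.12 in the NTC lines (SE 0.42, edgeR adjusted p = 0.943) and 0.02 in the guide lines (SE 0.29, edgeR adjusted p = 0.968), and its sign turned under several alternatives. Whether the counting used the strand of the reads is not given in the sources used here. If it did not, reads of MT-ND6 and of heavy strand RNA opposite to it cannot be told apart.

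Per 1000 heavy strand mRNA counts there were 1.45 ± 0.516 MT-ND6 counts with DMSO and 1.13 ± 0.333 with Nutlin-3a (SD, n = 12). In the NTC lines the ratio was 1.70 and 2.74 in NTC1 (harvests 1 and 3) and 1.42 and 1.62 in NTC2 with DMSO, and 1.35, 1.38, 1.34 and 1.47 in the same order with Nutlin-3a. The mean log2 ratio changed by -0.37 over the 6 lines, to 0.774 of its level (SD 0.28, lower in 6 of 6; exact sign-flip permutation p = 0.0312, Benjamini-Hochberg adjusted over 2 ratios 0.0312). This call rested on the divergent library, which had 0.339 MT-ND6 counts per 1000. Without it the change was -0.19 (exact permutation p = 0.188, lower in 5 of 6 lines), and without harvest 1 of sgRNA-2 in both treatments it was -0.23 (exact permutation p = 0.0625). Within harvest 1 it was -0.35 (exact permutation p = 0.156) and within harvest 3 it was -0.39 (exact permutation p = 0.0625).

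**Figure D4:**
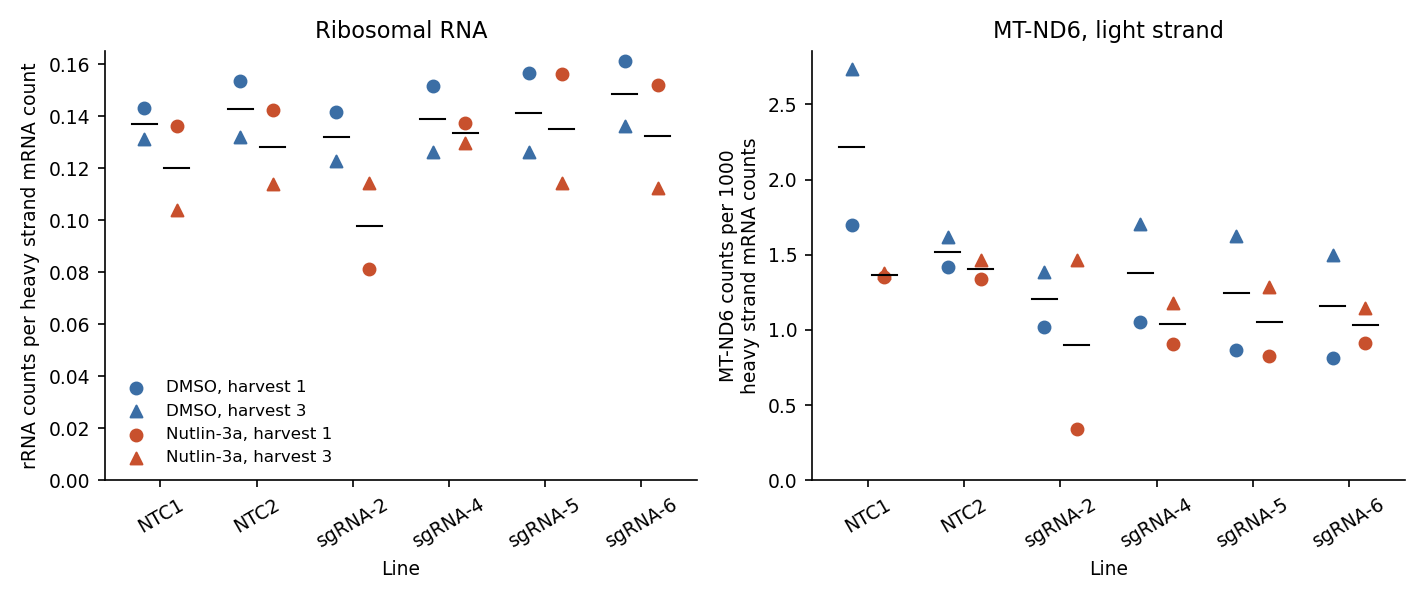
Left, rRNA counts per heavy strand mRNA count; right, MT-ND6 counts per 1000 heavy strand mRNA counts, by line; circles are harvest 1, triangles harvest 3, blue DMSO, red Nutlin-3a, bars the mean of 2 harvests. The Nutlin-3a bar is lower in each line in both panels, and the lowest points, 0.0813 and 0.339, are the divergent library.

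Shares of single genes within the heavy strand mRNAs were set side by side as a description, with no test. MT-CO1 made up 26.4% ± 1.06 of heavy strand mRNA counts with DMSO and 27.6% ± 1.36 with Nutlin-3a (SD, n = 12), and its share was larger in 6 of 6 lines. MT-ND4 went from 8.59% ± 0.462 to 8.98% ± 0.399, also in 6 of 6 lines. The shares of MT-ND3, MT-ATP6, MT-CYB and MT-ND1 were smaller in 6 of 6 lines, MT-CYB for example at 5.37% ± 0.226 and 4.89% ± 0.314. Without the divergent library MT-ATP6 and MT-ND1 were each larger in 1 line.

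The second comparison asked whether the mitochondrial genes differed between the PURPL guide lines and the NTC lines. With DMSO, the share of mitochondrial counts was 0.863% ± 0.0481 in the NTC libraries (SD, n = 4) and 0.96% ± 0.071 in the guide libraries (n = 8), ranging from 0.81% to 0.93% and from 0.85% to 1.08%. The log2 difference over lines was 0.15 (exact two-sided permutation test, 15 splits of 6 lines, p = 0.133), in a design that cannot go below 0.0667. With Nutlin-3a it was -0.03 (exact permutation p = 0.6), with 1.24% ± 0.172 in the NTC and 1.21% ± 0.091 in the guide libraries. That sign turned to 0.04 without NTC1 and 0.03 within harvest 1.

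No mitochondrial gene differed between guide and NTC lines by edgeR's test with lines as replicates, where 0% of genes were higher and 0.00601% lower with DMSO, and 0% either way with Nutlin-3a. DESeq2 called none of the 15 either. With DMSO 14 of 15 log2 differences were above 0, against 7933 of all 16648 genes tested. Their median was 0.16 for the 15, beside -0.01 over all genes. Of the 15, 6 had an unadjusted p under 0.05, against 528 of all genes. MT-ND4L had the largest, 0.36 (SE 0.13, edgeR adjusted p = 0.825). MT-ND6 alone was below 0, at -0.44 (SE 0.16, edgeR adjusted p = 0.825), with 10.7 ± 3.53 CPM in the guide and 14.2 ± 4.88 CPM in the NTC libraries. Leaving out NTC2, so that NTC1 stood alone and was assumed to vary like the other lines, MT-ND5 and MT-CYB were called higher and MT-ND6 lower (log2 differences 0.51, 0.15 and -0.69, edgeR adjusted p = 0.00225, 0.0425 and 0.000303). In that fit 3075 genes were called higher and 3249 lower.

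With Nutlin-3a the median log2 difference was -0.06. Unadjusted p-values were under 0.05 for 2 of the 15 genes, against 286 of all 16900 genes tested. The 2 were MT-ND6, at -0.51 (SE 0.11, edgeR adjusted p = 0.676), and MT-ND2, at -0.25 (SE 0.10, edgeR adjusted p = 0.676). In harvest 1, the MT-ND6 ratio to heavy strand mRNA lay between 1.42 and 1.70 per 1000 in the NTC lines and between 0.815 and 1.05 in the guide lines with DMSO, and between 1.34 and 1.35 against 0.339 to 0.914 with Nutlin-3a. These did not overlap, but in harvest 3 the NTC and guide values did, with 1.39 to 1.71 in the guide lines against 1.62 and 2.74 with DMSO. How often other genes separated the NTC and guide lines in harvest 1 was not counted, and the separation was not tested.

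The response to Nutlin-3a was smaller in the guide lines than in the NTC lines for all 15 genes by point estimate, with a median difference of -0.26 on the log2 scale beside -0.04 over all genes. That median was -0.20 without the divergent library and -0.09 with the GC trend removed. No gene passed the test of that difference (edgeR, 12 line sums with a term for each line, adjusted p = 0.533 or more), and 0% of all genes tested did. Unadjusted p-values were under 0.05 for 7 of the 15, against 621 of all 17264 genes tested, and DESeq2 called none of the 15. The difference was above 0 for 7998 of all genes. MT-ND5 had the largest difference, -0.43 (SE 0.17, edgeR adjusted p = 0.533), and MT-CO3 one of -0.13 (SE 0.12, edgeR adjusted p = 0.567). A difference between guide and NTC lines in this response was therefore not shown by these tests, nor was its absence.

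The harvest number moved with several mitochondrial genes. MT-ND6 was higher in harvest 3 than in harvest 1 in 12 of 12 combinations of line and treatment, with a median log2 difference of 0.67 and a range of 0.23 to 2.25, the last from sgRNA-2 with Nutlin-3a. Of all genes tested, 0.275% were higher in 12 of 12. MT-ND1, MT-ND2, MT-ATP6 and MT-CYB were higher in 11 of 12, where 1.64% of genes reached at least 11. MT-ND3 went the other way in most, being higher in harvest 3 in 3 of 12 with a median of -0.38; MT-RNR2 was likewise higher in 3 of 12, with a median of -0.13. MT-CO1, MT-ND4 and MT-ND5 had medians of 0.15, 0.08 and 0.07. With a term for the harvest number in the edgeR fit, the SE in the NTC lines went from 0.415 to 0.243 for MT-ND6. For MT-ATP6 it went from 0.186 to 0.104, for MT-ND1 from 0.192 to 0.123, for MT-ND2 from 0.202 to 0.13 and for MT-CYB from 0.152 to 0.0964. The SE was larger with that term for MT-ND5 (0.124 and 0.127), MT-ND4L (0.136 and 0.14) and MT-RNR2 (0.136 and 0.137). What the harvests differed in is not given in the labels, and the cause of these differences was not tested.

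**Figure D5:**
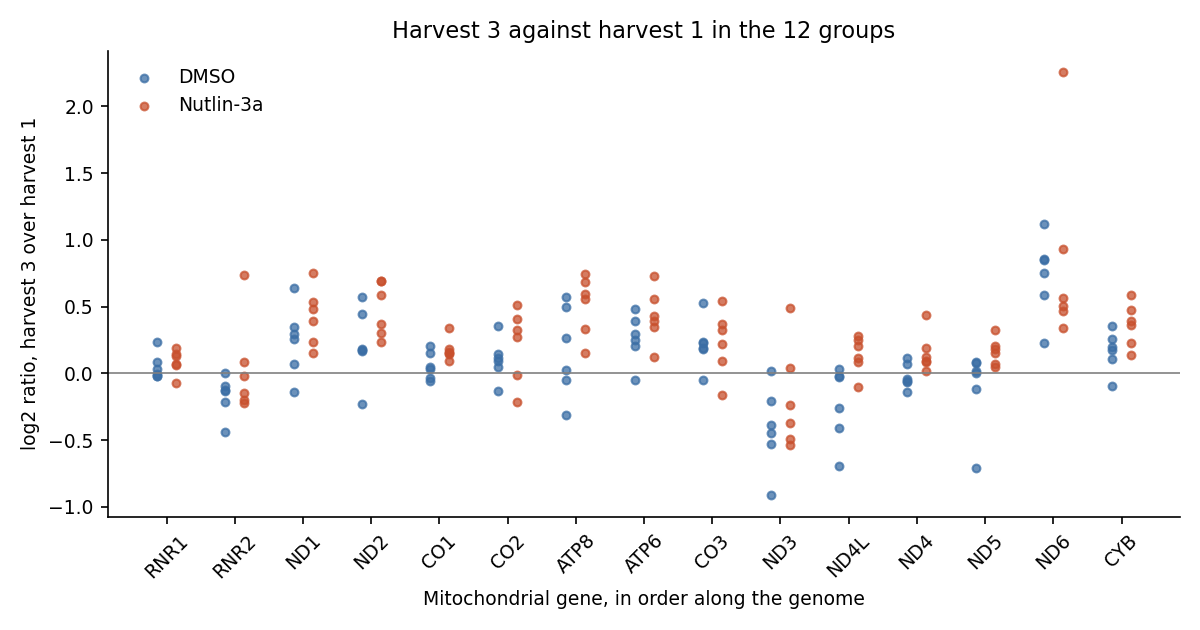
Log2 ratio of harvest 3 over harvest 1 for each gene; points are the 6 lines with DMSO (blue) and with Nutlin-3a (red). MT-ND6 lies above 0 in all 12 and most MT-ND3 points lie below it, and the highest MT-ND6 point, 2.25, involves the divergent library.

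Sequences very like the mitochondrial genes also sit in the nuclear genome, and reads can be divided between the 2. Of 407 rows for such copies, 3 reached a mean of 1 CPM, and all copies together held counts equal to 0.916% of the mitochondrial counts. MTATP6P1, MTND2P28 and MTCO1P12, neighbours on chromosome 1 (hg38, chr1:633696-634376 for MTATP6P1), averaged 69.05, 21.7 and 6.89 CPM. Their annotated transcripts matched MT-ATP6, MT-ND2 and MT-CO1 at 98.5%, 98.4% and 98.6% of aligned bases. In the NTC lines their log2 fold changes with Nutlin-3a were 0.46, 0.80 and 0.33 (edgeR adjusted p = 0.217, 0.0404 and 0.571), and the call of MTND2P28 was lost when any 1 of the 8 NTC libraries was left out. Counts that were not whole, which arise where a read is divided between genes, occurred in all 24 libraries for MT-CO1, MT-ND2 and MT-ND4. None occurred for MT-ND3, MT-CYB, the rRNAs, or MT-ND4L and MT-ND5, which were called.

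Nuclear genes that run mitochondrial expression were counted by list, beside the 4.18% of all genes that rose and 4.03% that fell in the NTC lines and 17.7% and 16.5% in the guide lines. Of 22 genes of mitochondrial DNA transcription and replication, 0 rose and 1 fell in the NTC lines, and 1 rose and 3 fell in the guide lines, with median log2 fold changes of -0.14 and -0.06. These shares, 0% and 4.55% in the NTC lines and 4.55% and 13.6% in the guide lines, were near or below those of all genes. MTERF3, a negative regulator of mitochondrial transcription, fell in both, by 0.52 (SE 0.12, edgeR adjusted p = 0.0125) and 0.66 (SE 0.08, edgeR adjusted p = 3.36e-05), from 65.6 to 45.8 CPM in the NTC lines. TFAM, which packages mitochondrial DNA and starts its transcription, had a log2 fold change of -0.17 in the NTC lines (edgeR adjusted p = 0.778) and -0.37 in the guide lines (edgeR adjusted p = 0.0597). The RNA polymerase of the organelle, POLRMT, had -0.46 (SE 0.58) and 1.03 (SE 0.41) and did not pass. Leaving out the divergent library gave 1 higher and 3 lower in the NTC lines and 1 higher and 6 lower in the guide lines, where 8.88% and 15.9% of all genes rose and 15.9% and 22.7% fell.

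Among 37 genes of mitochondrial RNA processing and stability, 1 rose and 1 fell in the NTC lines, and 4 rose and 10 fell in the guide lines. That is 2.7% in each direction, and then 10.8% higher, below the share of all genes, and 27% lower, above it. MTO1, which modifies mitochondrial tRNAs, rose by 0.35 and 0.32 (edgeR adjusted p = 0.0422 and 0.00319), and TRMU, another tRNA-modifying enzyme, fell by 0.44 and 0.38 (edgeR adjusted p = 0.0494 and 0.00607). In the guide lines the falls included PNPT1 (the mitochondrial RNA-degrading phosphorylase, -0.51), MTPAP (the mitochondrial poly(A) polymerase, -0.43) and TRMT10C (a subunit of the enzyme that cuts tRNA 5′ ends, -0.49), at edgeR adjusted p = 0.00182, 0.0149 and 0.00964. LRPPRC, which stabilises the heavy strand mRNAs, had 597 CPM with DMSO and 593 CPM with Nutlin-3a in the NTC lines (edgeR adjusted p = 0.998). Without the divergent library 11 (29.7%) fell in the NTC lines and 17 (45.9%) in the guide lines, against 15.9% and 22.7% of all genes. The NTC calls of MTO1 and TRMU held under 8 and 6 of 18 alternatives.

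Of 19 measured regulators, 3 (15.8%) fell in the NTC lines and 7 (36.8%) in the guide lines, where 1 (TFE3) rose, a call lost without the divergent library (edgeR adjusted p = 0.0595). Without that library 8 fell and 1 rose in the NTC lines, and 10 fell and 0 rose in the guide lines, or 42.1% and 52.6% that fell against 15.9% and 22.7% of all genes. PPARGC1B, a coactivator of mitochondrial gene programmes, fell by 0.85 and 1.02 (edgeR adjusted p = 0.00046 and 8.1e-07). MYC fell by 0.89 and 0.63 (edgeR adjusted p = 0.00747 and 0.00235), and YY1, whose NTC call held under 8 of 18 alternatives, by 0.38 and 0.49 (edgeR adjusted p = 0.046 and 0.000229). NRF1, the factor that drives many nuclear genes of the respiratory chain, had -0.46 in the NTC lines (edgeR adjusted p = 0.0563) and fell by 0.34 in the guide lines (edgeR adjusted p = 0.0175). Among 15 genes of nucleotide supply, 1 rose and 1 fell in the NTC lines, and 3 rose and 3 fell in the guide lines, at 6.67% and 20% in each direction near the shares of all genes. RRM2B, the p53-inducible ribonucleotide reductase subunit that serves mitochondrial DNA outside S phase, rose by 1.46 and 1.23 (edgeR adjusted p = 0.0014 and 9.78e-05). Its S phase counterpart RRM2 fell by 0.86 and 1.09 (edgeR adjusted p = 0.00071 and 8.08e-07).

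The last list held 71 nuclear genes of respiratory chain subunits, the partners of the mitochondrial products. In the NTC lines 1 rose, NDUFV3 of complex I (log2 fold change 0.47, edgeR adjusted p = 0.00463), and 0 fell, with a median of -0.00165 on the log2 scale. In the guide lines 40 (56.3%, against 17.7% of all genes) rose and 1, UQCRFS1, fell, with a median of 0.26 beside 0.05. Leaving out the divergent library, 29 (40.8%, against 15.9%) rose there, and the median was 0.15. NDUFB7 for example went from 1.94 to 0.42 on the log2 scale, and its edgeR adjusted p from 0.0245 to 0.25. With the GC trend removed instead, 60 rose and 0 fell in the guide lines, where 23% of all genes rose and 21.6% fell. The median of the list was then 0.29. The edgeR test of the difference between the sets of lines called 0 of the 71. Unadjusted p was under 0.05 for 5 of them, against 621 of all 17264 genes tested. Summed levels of the list were 6544 to 7895 CPM in the other libraries and 9365 CPM in the divergent one.

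A list of 10 long noncoding RNAs, several of them known to stay in the nucleus, was summed beside these results. In the NTC lines the sum was 1189 to 1436 CPM with DMSO and 1671 to 1969 CPM with Nutlin-3a, and in the guide lines 1293 to 1413 and 960 to 1838 CPM, the lowest being the divergent library. Of 9 measured members, NEAT1 rose in both (log2 fold changes 1.41 and 1.15, edgeR adjusted p = 0.000774 and 6.72e-05), as did NORAD, which is known as mainly cytoplasmic, and the snoRNA host SNHG1 fell. That is 22.2% higher and 11.1% lower in each set of lines. Of all genes, 4.18% rose and 4.03% fell in the NTC lines, and 17.7% and 16.5% in the guide lines. The NTC call of NORAD held under 9 of 18 alternatives and was lost when any 1 of the 8 NTC libraries was left out. RNAs without poly(A) tails summed to 2.76 to 8.51 CPM in all libraries but the divergent one, which had 11.7. The part of these RNAs in the mitochondrial results was not tested.

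Markers of other cell types were read in the same way. Summed levels in the other libraries and in the divergent one were 23.4 to 58.5 and 225 CPM for endothelial markers, 1361 to 2608 and 9002 CPM for epithelial markers, and 3740 to 4743 and 5222 CPM for fibroblast and mural markers. Leukocyte markers summed to 16.2 to 34.0 and 79.2 CPM, and hepatocyte markers to 2.55 to 5.22 and 7.25 CPM. The divergent library was thus the highest in all 5 lists. Of 28 measured markers 1 rose and 0 fell in the NTC lines, and 10 rose and 1 fell in the guide lines. Shares of all genes were 4.18% higher and 4.03% lower in the NTC lines, and 17.7% and 16.5% in the guide lines. When the divergent library was left out, 3 of 30 markers rose and 2 fell in the NTC lines, and 9 rose and 1 fell in the guide lines. The shares of all genes were then 8.88% and 15.9%, and 15.9% and 22.7%. The part of the markers in the mitochondrial results was not tested.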

How the data were processed

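The authors deposited 1 table of estimated counts per gene for 24 libraries, made with RSEM per the submitters' processing notes from TruSeq stranded mRNA libraries per the labels' protocols. The submitters' processing notes name cutadapt, STAR, RSEM, DESeq2 and hg38; neither their versions nor the strand setting is given in the sources used here. RSEM divides reads that match several genes, so values need not be whole, and they were rounded. The 45 rows of the second pseudoautosomal copy (0.0222% of counts) were added to their X rows, leaving 58825 genes.

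Members were the MT- rows; strand, length and sequence came from GENCODE release 29 (hg38). Counts passing filterByExpr (minimum count 10) were normalised with TMM and tested with edgeR 4.0.16's robust quasi-likelihood F test in R 4.3.3, Benjamini-Hochberg adjusted across every gene tested, with 0.05 as the threshold. The Nutlin-3a responses came from 1 model of 12 group means, with 12 residual degrees of freedom. Guide lines were compared with NTC lines on sums of each line's harvests, so those p-values measure the spread between lines. Shares and ratios were tested by exact permutation over lines (scipy 1.17.1). A member not overlapping between groups was counted on CPM. The labels call the harvests biological replicates; none were duplicates of each other by a chi-square test of their counts. The edgeR fits of 2 comparisons, Nutlin-3a in the NTC lines and guide lines with DMSO, were run on simulated counts. They recovered 76.1% and 71.6% of 1.5-fold changes and 97% and 98.5% of 2-fold changes, and called 10 and 17 genes that had not been changed. The guide comparison with Nutlin-3a was not simulated. For the first, the simulated spread was estimated without the divergent library, which the fit to the data included. The exact tests were run on cases with known answers.

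All measured mRNA and rRNA members are named; from the other lists, called genes were named, at most 6 per list, direction and comparison by size of change, along with TFAM, POLRMT and LRPPRC, which were named after their values were seen. The members and lists were chosen with earlier results of these data known. Alternatives were DESeq2 1.42.0, RLE factors, TMM without mitochondrial genes, other filters (none, 1 CPM), line sums, a harvest block and libraries, lines or harvests left out. Removal of each library's GC trend (lowess span 0.3), the block without the divergent library and leaving out harvest 1 of sgRNA-2 in both treatments were chosen after seeing the data. Lists of endothelial, hepatocyte, epithelial, fibroblast and leukocyte markers were summed, and their genes were tested with all others.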

Additional observations from a re-analysis of the deposited data

Results flagged for a closer look

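A library was marked when it lay at the end of its group with a gap to its nearest neighbour that took up most of the group's range (Dixon's criterion at 95%). Of 72 groups of values tested, 3 were marked, and chance alone marks about 1 in 20 groups, or 3.6 of 72. MT-RNR2 was high in harvest 1 of NTC2 with DMSO, at 990.3 CPM, where the other 3 NTC libraries with DMSO had 836 to 852 CPM. MT-RNR2 was low in harvest 1 of sgRNA-2 with Nutlin-3a, the divergent library, at 670.5 CPM, where the other 7 guide line libraries with Nutlin-3a had 1095 to 1275 CPM. MT-ND5 was high in harvest 3 of NTC1 with Nutlin-3a, at 709.3 CPM, where the other 3 NTC libraries with Nutlin-3a had 562 to 582 CPM. The rise of MT-ND5 in the NTC lines passed the test with each of the 8 NTC libraries left out in turn.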

How the results depend on the processing

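MT-CO1, MT-ND4 and MT-ND4L were called higher under all 18 alternatives in the NTC lines and all 26 in the guide lines, and MT-ND5 under 18 of 18 and 25 of 26. The number of genes called higher in the NTC lines went from 5 to 9 with DESeq2, 8 with the GC trend removed, 8 with line sums and 10 without the divergent library, and in the guide lines from 6 to 12 with the GC trend removed. Of all genes, 685 were higher and 659 lower in the NTC lines, against 1752 and 1815 with the GC trend removed, 1482 and 2655 without the divergent library and 381 and 294 with line sums. In the guide lines 2896 of all genes were higher, against 3749 (23%) with the GC trend removed. A replicate block for the harvest number gave 10 genes in the NTC lines and 8 in the guide lines, and 14 and 11 when the divergent library was also left out. With the block, 732 and 2698 of all 16371 genes were higher. Without that library as well, 1651 and 2784 of 16697 were (9.89% and 16.7%). In the NTC lines the block added MT-CYB, MT-ATP6, MT-ND1, MT-ND2 and MT-CO3 (edgeR adjusted p = 0.0119, 0.0137, 0.0259, 0.0104 and 0.0198), and in the guide lines MT-ND1 and MT-ATP6 (edgeR adjusted p = 0.0458 and 0.0341). In the guide comparisons the block changed no count. Residuals of same-numbered harvests correlated at -0.56 to 0.48 over 66 pairs of groups (median 0.05). On that ground the numbers were not taken to pair the libraries in the main fit. Between the treatments of a line the correlation was positive in every line, at 0.02 to 0.32. These correlations do not speak for single genes, and MT-ND6 and several other mitochondrial genes moved with the harvest number, as described above. In the guide comparisons the block treats 12 libraries as replicates.

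With single libraries left out, MT-ND6 ranged from -0.16 to 0.331 in the NTC lines and from -0.38 to 0.189 in the guide lines, and MT-ND3 in the guide lines from -0.0133 to 0.225. Leaving out 1 line gave 0 to 2 genes higher and 0 to 1 lower between guide and NTC lines with DMSO, the 2 and the 1 arising without NTC2. The median of the guide comparison with Nutlin-3a reversed to 0.046 with the GC trend removed. MT-ND6 in the NTC lines reversed to -0.16, -0.0498 and -0.0144 without harvest 1 of NTC1 with DMSO, harvest 3 of NTC1 and harvest 3 of NTC2 with Nutlin-3a. In the guide lines it reversed to -0.00448 with the replicate block and -0.0143 with line sums, and without single libraries to -0.0734, -0.0866, -0.121 and -0.0775 (harvest 1 with DMSO of sgRNA-2, sgRNA-4, sgRNA-5 and sgRNA-6) and -0.38, -0.0538, -0.149 and -0.0795 (their harvest 3 with Nutlin-3a). MT-ND3 there reversed to -0.0133 without harvest 3 of sgRNA-6 with DMSO. None of these was called, and the cause was not tested.

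With 1 line left out, exact p cannot go below 0.0625. The log2 change of the mitochondrial share was then 0.354 to 0.419 (0.316 without replicate 3 and 0.462 without replicate 1), of the rRNA ratio -0.213 to -0.133, and of the MT-ND6 ratio -0.421 to -0.292. The rRNA ratio was -0.171 without replicate 1 (exact permutation p = 0.0625). The MT-ND6 ratio was -0.193 without the divergent library, -0.353 without replicate 3, -0.385 without replicate 1 and -0.23 without harvest 1 of sgRNA-2 in both treatments. The share difference between guide and NTC lines with Nutlin-3a reversed to 0.036 without NTC1 and 0.0326 without replicate 3, and was -0.0889 without NTC2. The 2 planned tRNA ratios were not run, since tRNA genes had 8 counts in all.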
